A study of Mus musculus with 4 samples.

Results

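Scavenger receptors and the receptors that take up dying cells were followed as a set of 10 genes in dendritic cells sorted from mouse spleen. The genes were Cd36, Msr1, Marco, Mrc1, Lrp1, Mertk, Axl, Gas6, Pros1 and Havcr2. They were found by matching the Ensembl identifiers of the deposited table to gene symbols, and all 10 were among its 17300 genes. Of these, 8 passed the filter on low values, a mean at least 1 log2 unit above the table's lowest value, and Marco and Gas6 did not. RNA was sequenced from 2 KO and 2 WT samples. The title of the series concerns Siglec-E, an inhibitory receptor for sialic acid on myeloid cells. The comparison asks how the RNA of splenic dendritic cells differs between KO and WT.

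The labels give each group by genotype alone, as KO or WT. The sources used here give neither the deleted gene nor the strain, age, sex and treatment of the mice. Every column of the table begins with Allo, which these sources do not explain. The KO columns carry other numbers than the KO sample titles, and so only their group is known; they are named KO A and KO B here. Where a pair of values is given for a group, it runs KO A then KO B, and WT 1 then WT 2. Separate animals are not stated for the samples of a group, and the p-values therefore measure only the spread between these libraries, which may be technical in part.

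Phagocytes remove dying cells by recognising phosphatidylserine exposed on their surface. The TAM kinases Mertk, Axl and Tyro3 do this through the soluble ligands Gas6 and protein S (Pros1), while TIM-3 (Havcr2) binds the lipid directly. Scavenger receptors such as CD36, SR-A1 (Msr1) and MARCO bind modified lipoproteins, microbes and cell debris, and LRP1 is a large endocytic receptor that also takes part in the uptake of dying cells. In spleen, TIM-3 is known from conventional type 1 dendritic cells (DC1), MERTK and AXL from red pulp macrophages, and MARCO from macrophages of the marginal zone.

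Siglece itself stood at 8.92 and 8.96 in KO, against 10.38 and 10.14 in WT (deposited log2 values), 7.18-fold lower in back-transformed counts in KO. Back-transformed counts summed to between 30274060 and 30952251 per KO library and between 29002408 and 29377044 per WT library, after the authors' scaling, so the depth in reads is unknown. The Y-linked gene Ddx3y was low in KO A, at 8.74 and 12.13 in KO, against 11.82 and 11.97 in WT. The share of male cells may thus differ between KO A and the other libraries, and its part in the differences was not tested. The sorted cells carried dendritic cell RNA in all libraries: Flt3, the receptor of their growth factor, stood at 7651 and 7442 normalized counts in KO, against 12577 and 13167 in WT. They also carried RNA of genes used here as markers of other cells. The haem oxygenase Hmox1, a macrophage marker, stood at 2917 and 3483 counts in KO, against 1182 and 1373 in WT. Which cells held this RNA was not measured. In such bulk samples, fewer cells of a type and less RNA per cell cannot be told apart.

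None of the 8 genes tested passed the threshold, an adjusted p of 0.05 in limma over all 11864 genes tested: 0 were called higher and 0 lower. Over all genes tested, 6.93% were called, 4.69% higher and 2.23% lower in KO, and with quantile normalization the calls split into 366 higher and 282 lower in place of 557 and 265. At an unadjusted p under 0.05, 5 of the 8 were higher (Cd36, Msr1, Mrc1, Lrp1 and Axl) and 1 was lower (Havcr2), where 24.7% of all genes tested reached that level in either direction. Both KO libraries lay above both WT libraries for those 5 genes, an order found for 28.1% of genes tested. For Havcr2 both KO libraries lay below both WT libraries, which held for 28.2%. Mertk and Pros1 overlapped between the groups. The median difference of the 8 was 0.38, beside -0.0017 over all genes tested. Without KO A, 0 genes of the whole table passed in limma, and without KO B 3 did, all of them lower in KO, so every call below is lost without KO A and every higher call without KO B.

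**Figure D1:**
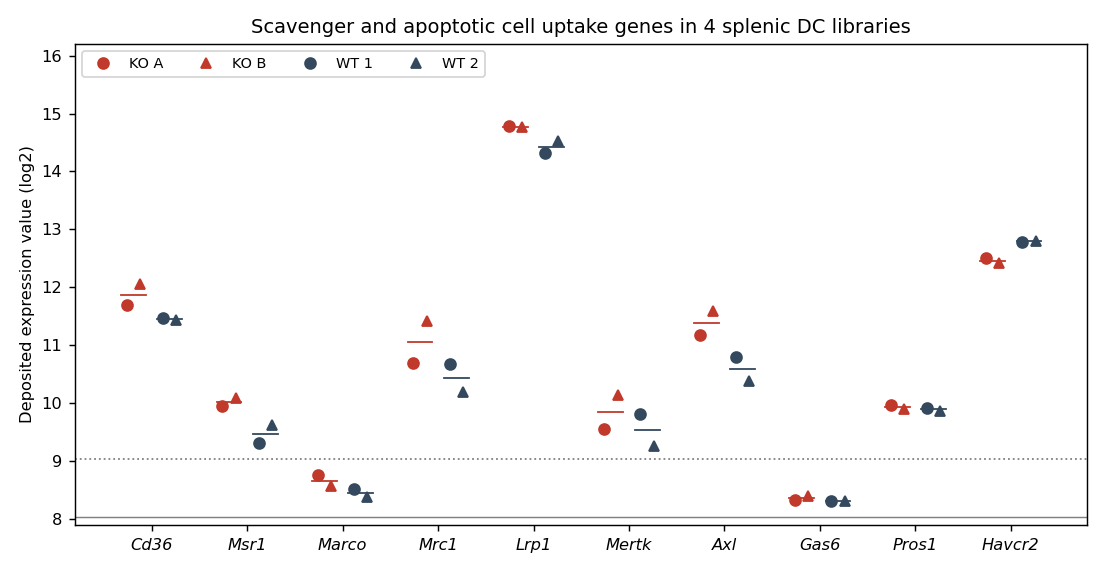
Deposited log2 expression values of the 10 genes in each library (points, KO left of WT) with group means (short lines, n = 2 each). The dotted line marks the filter on a gene's mean and the solid grey line the table's lowest value, 8.04. Marco and Gas6 lie under the dotted line, Havcr2 is the gene whose KO points both lie below WT, and Mertk shows KO A below WT 1.

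Levels between genes were compared as normalized counts per kilobase of exon. The order was the same in both groups. Havcr2 was first, with 1886 counts per kilobase in KO and 2417 in WT, followed by Lrp1 with 1554 in KO and 1217 in WT and Cd36 with 913 in KO and 644 in WT. Axl followed with 439 in KO and 215 in WT, then Mrc1 with 268 in KO and 147 in WT. Pros1 had 129 in KO and 122 in WT, Mertk 113 in KO and 75.6 in WT, and Msr1 92.0 in KO and 44.8 in WT. Marco was at 27.1 in KO and 11.5 in WT, and Gas6 was last at 5.52 in KO and 3.95 in WT. Neighbours in this order overlapped between libraries for Pros1 and Mertk and for Mertk and Msr1 in KO. In WT the overlapping neighbours were Axl and Mrc1, Mrc1 and Pros1, and Mertk and Msr1. So the abundant members were the phosphatidylserine receptor TIM-3, LRP1 and CD36, while the ligand Gas6 was close to the lowest value of the table.

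On the deposited log2 scale, the TAM kinase Axl showed the largest difference of the 10 genes, while in counts the folds of Marco (2.36) and Msr1 (2.05) were as large or larger. Axl (ENSMUSG00000002602), a receptor kinase that binds Gas6, stood at 11.18 and 11.59 in KO, against 10.81 and 10.38 in WT. Both KO libraries were above both WT libraries, by 0.38 between the closest pair. The difference was 0.80 (SE 0.183, 95% interval 0.36 to 1.24), 2.05-fold in counts, and missed the threshold in limma (adjusted p = 0.0531). Without WT 1 the difference was 1.01 and passed (adjusted p = 0.0102), and with the stricter filter of 2 log2 units it passed as well (adjusted p = 0.0480). The difference was 0.58 without WT 2 and 0.59 without KO B.

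Mertk (ENSMUSG00000014361), the TAM kinase that macrophages use to engulf dying cells, followed another order. It stood at 9.56 and 10.13 in KO, against 9.82 and 9.26 in WT. KO A was below WT 1, so the groups overlapped, and the difference of 0.31 (SE 0.239, 95% interval -0.27 to 0.88) was within the spread (adjusted p = 0.478). It was 0.022 without KO B and 0.026 without WT 2, against 0.60 without KO A and 0.59 without WT 1. The libraries of a group were 0.57 apart in KO and 0.57 apart in WT, more than the groups were. Tyro3, the remaining TAM kinase, stood at 8.33 and 8.43 in KO, against 8.36 and 8.32 in WT, under the filter. Its normalized counts were 10.6 and 19.5 in KO, against 13.1 and 10.5 in WT.

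Of the ligands of these kinases, Pros1 (ENSMUSG00000022912), protein S, stood at 9.98 and 9.91 in KO, against 9.92 and 9.87 in WT. The groups overlapped within 0.11 log2 units in all, and the interval of the difference ran from -0.17 to 0.26 around 0.05 (adjusted p = 0.791). Gas6 (ENSMUSG00000031451) had only 11.5 and 16.7 normalized counts in KO, against 9.90 and 10.2 in WT. It was under the filter, and with no filter its difference of 0.050 did not pass (adjusted p = 0.709). In counts it was 1.40-fold higher, with both KO libraries above both WT libraries. Exons of Gas6 overlap those of Tmem255b on the opposite strand in the annotation used for names, and whether the authors counted by strand is not given in the sources used here.

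Of the scavenger receptors, Cd36 (ENSMUSG00000002944), which binds oxidised lipids and thrombospondin, stood at 11.70 and 12.05 in KO, against 11.47 and 11.44 in WT. Both KO libraries were higher, KO B by more. The difference was 0.42 (SE 0.126, 95% interval 0.12 to 0.72), 1.42-fold in counts (adjusted p = 0.103), and it was 0.24 without KO B and 0.60 without KO A. Msr1 (ENSMUSG00000025044), the class A receptor SR-A1, stood at 9.96 and 10.09 in KO, against 9.31 and 9.63 in WT. Here too the groups did not overlap. Its difference of 0.56 (SE 0.129, 95% interval 0.25 to 0.87) was 2.05-fold in counts and missed the threshold (adjusted p = 0.0532). It passed without WT 2, at 0.72 (adjusted p = 0.0122), and with robust moderation (adjusted p = 0.0452).

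Marco (ENSMUSG00000026390), another class A receptor, had 68.7 and 35.4 normalized counts in KO, against 28.8 and 15.4 in WT. Both KO libraries were above both WT libraries, 2.36-fold in counts. It was under the filter, and with no filter its difference of 0.22 did not pass (adjusted p = 0.238). The mannose receptor Mrc1 (ENSMUSG00000026712), which clears glycoproteins, stood at 10.70 and 11.42 in KO, against 10.68 and 10.20 in WT. KO A and WT 1 were 0.013 apart, so the order of the groups rests on a near tie. The difference was 0.61 (SE 0.255, 95% interval 0.0024 to 1.23; adjusted p = 0.201), and it was 0.25 without KO B and 0.98 without KO A. Lrp1 (ENSMUSG00000040249), the endocytic receptor, stood at 14.79 and 14.76 in KO, against 14.32 and 14.53 in WT. Its difference of 0.35 (SE 0.0967, 95% interval 0.12 to 0.58) was 1.28-fold in counts (adjusted p = 0.0851).

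Havcr2 (ENSMUSG00000020399) was the 1 gene that was lower in KO. TIM-3 RNA stood at 12.51 and 12.42 in KO, against 12.79 in both WT libraries. The WT libraries were 0.0024 apart and the KO libraries 0.087, while the closest KO and WT libraries were 0.29 apart. The difference was -0.33 (SE 0.0791, 95% interval -0.52 to -0.14), 1.28-fold lower in counts (adjusted p = 0.0585). With quantile normalization it was -0.38 and passed (adjusted p = 0.0487).

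**Figure D2:**
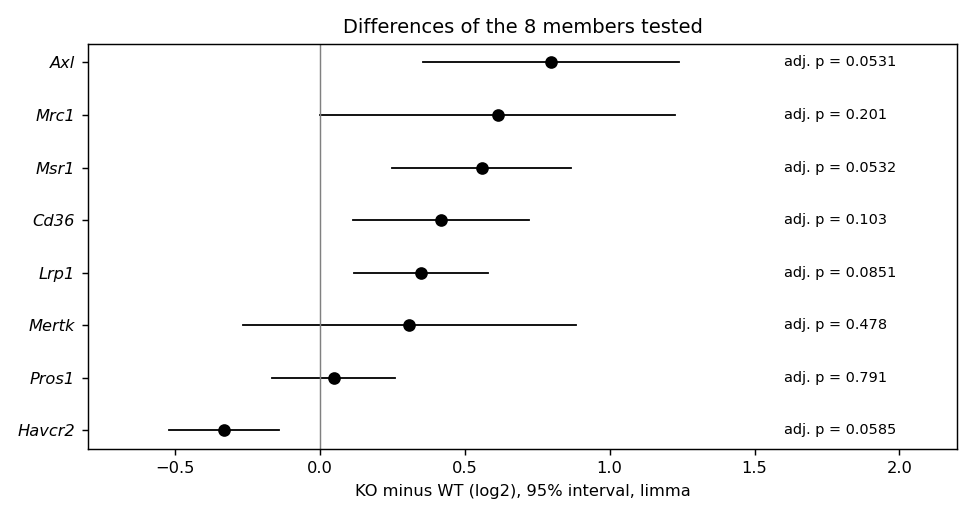
KO minus WT differences (log2, points) of the 8 tested genes with their 95% intervals from limma (lines, n = 2 each) and adjusted p-values over all genes tested. Intervals of Mertk and Pros1 include 0, Havcr2 at -0.33 lies left of 0, and Axl at 0.80 is the farthest to the right.

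Promoters are shown for Axl, with the largest difference on the deposited log2 scale, and Havcr2, the gene that was lower in KO, as RefSeq gives them on GRCm38.p6, an older build than the GRCm39 named in the submitters' processing notes. Each line holds the 250 bases before the start of the gene, 5′ to 3′ on the gene's strand. Capitals mark TGANTCA, the letters of an AP-1 site, and GAGGAA, a core of sites for the myeloid factor PU.1, each searched on both strands (TTCCTC is GAGGAA on the other strand). These motifs do not overlap in either window. The Axl window is chr7:25788734-25788983 on the minus strand and the Havcr2 window is chr11:46454681-46454930 on the plus strand.
Axl: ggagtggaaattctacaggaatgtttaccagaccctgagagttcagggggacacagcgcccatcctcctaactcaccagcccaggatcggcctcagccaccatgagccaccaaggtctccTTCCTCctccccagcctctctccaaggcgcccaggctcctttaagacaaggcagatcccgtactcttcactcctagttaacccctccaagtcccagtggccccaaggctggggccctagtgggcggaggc
Havcr2: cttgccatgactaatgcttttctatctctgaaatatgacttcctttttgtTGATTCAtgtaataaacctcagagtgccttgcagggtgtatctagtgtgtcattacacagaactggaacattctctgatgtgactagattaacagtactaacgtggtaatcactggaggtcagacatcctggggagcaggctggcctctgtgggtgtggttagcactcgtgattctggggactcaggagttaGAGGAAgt

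Windows were at hand for 9 of the 10 genes, without Msr1. The AP-1 letters were found in 1 of the 9, that of Havcr2, at 200 bases before its start, and in 6.75% of all 32851 promoter windows. GAGGAA was found in 4 of the 9 (Mrc1, Marco, Axl and Havcr2), against 23.3% of all windows. In the same libraries, genes of the AP-1 family and other immediate early genes were higher in KO, with 21 of 26 past the threshold and 0 lower. Among them Fosl2, an AP-1 subunit, stood at 12.37 and 12.55 in KO, against 10.97 and 11.18 in WT (adjusted p = 0.0138). Binding at these letters was not measured.

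Genes that work with the 10 were counted next. Of 13 other receptors for dying cells that were tested, 1 rose, 1 fell and 11 did not pass, with a median of 0.20. Itgb5, which pairs with the alpha V integrin to bind opsonised dying cells, stood at 11.25 and 11.14 in KO, against 10.69 and 10.73 in WT. It rose by 0.48 (SE 0.0878, adjusted p = 0.0322). Clec9a, the DC1 receptor for actin of dead cells, stood at 12.45 and 12.37 in KO, against 12.87 and 13.12 in WT. It fell by 0.58 (SE 0.105, adjusted p = 0.0319). The integrin Itgam, which binds complement-coated particles, differed by 0.53 without passing (adjusted p = 0.152).

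Of 15 other scavenger receptors tested, 2 rose, 1 fell and 12 did not pass (median 0.17). Cd14, a receptor for lipopolysaccharide that also binds dying cells, stood at 10.08 and 9.90 in KO, against 8.95 and 9.34 in WT, and rose by 0.85, which was 3.33-fold in counts (SE 0.144, adjusted p = 0.0278). Mrc2, a collagen receptor related to Mrc1, fell by 0.53 (adjusted p = 0.0279), 2.76-fold in counts at a low level of 89.9 and 96.8 counts in KO, against 228 and 288 in WT.

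Of 14 bridging molecules and opsonins tested, 4 rose, 0 fell and 10 did not pass (median 0.31). Thbs1, thrombospondin 1, which links dying cells to CD36 and the alpha V integrins, stood at 11.64 and 11.11 in KO, against 9.50 and 10.01 in WT. The groups were far apart, and it rose by 1.62, which was 5.07-fold in counts (SE 0.220, adjusted p = 0.0199). The 3 chains of C1q, a complement opsonin of dying cells, were the other calls: C1qa rose by 0.77 (adjusted p = 0.0329), C1qb by 0.72 (adjusted p = 0.0302) and C1qc by 0.71 (adjusted p = 0.0415). Mfge8, the integrin bridge MFG-E8, differed by -0.21 (adjusted p = 0.261). Lgals9, which encodes galectin-9, a ligand of TIM-3, differed by 0.39 (adjusted p = 0.139).

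In the list of TAM and LRP1 processing and feedback genes 1 of 9 rose, 0 fell and 8 did not pass (median 0.21). The call was Socs3, an inhibitor of cytokine signalling that TAM receptors induce, which stood at 11.67 and 11.82 in KO, against 10.64 and 11.03 in WT, and rose by 0.91 (adjusted p = 0.0233). Adam17, the protease that sheds MERTK, differed by 0.23 (adjusted p = 0.134). The engulfment machinery did not move past the threshold in limma. Of 29 genes, among them the Elmo, Dock and Rac genes that drive membrane ruffling, 0 rose and 0 fell (median 0.063). An unadjusted p under 0.05 in limma was reached by 9 of the 29, beside 24.7% of all genes tested. Of 19 genes of lipid handling after uptake, 1 rose, 1 fell and 17 did not pass (median 0.21). Apoe, the apolipoprotein that carries cholesterol out of macrophages, stood at 13.56 and 13.68 in KO, against 12.62 and 12.64 in WT, and rose by 0.99 (adjusted p = 0.0138). Lipa, the lysosomal acid lipase, fell by 0.40 (adjusted p = 0.0389). Among 14 find-me and do-not-eat-me genes 1 rose (Cd24a, by 0.66, adjusted p = 0.0199), 1 fell (Siglecg, by 0.80, adjusted p = 0.0241) and 12 did not pass (median 0.036), and Cd47 and its receptor gene Sirpa were among the last (adjusted p = 0.793 and 0.374).

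**Figure D3:**
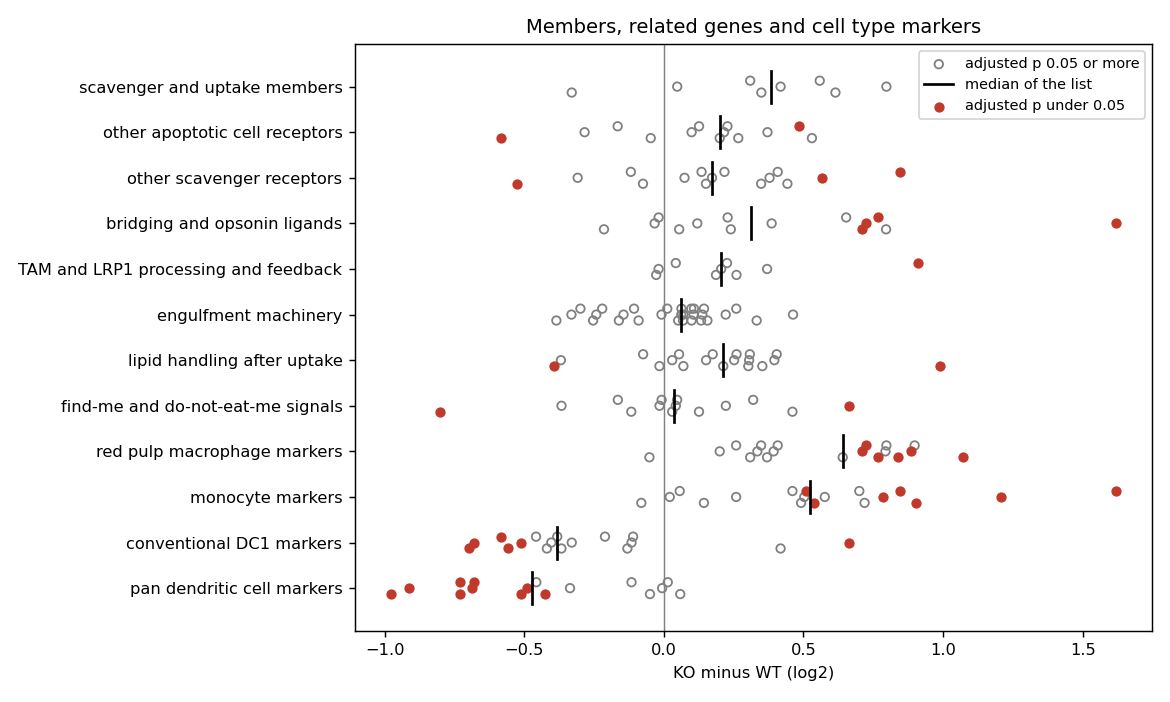
KO minus WT differences (log2) of every tested gene in the 10-gene set, in 7 lists of related genes and in 4 cell type marker lists (points, filled where the adjusted p was under 0.05; bars, list medians; vertical position within a row only separates points). Some genes stand in more than 1 list. All 8 points of the top row are open, the bridging ligands hold Thbs1 at 1.62, and macrophage and monocyte markers lie mostly right of 0 while dendritic cell markers lie mostly left.

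Markers of other cells moved in the same libraries. Of 19 red pulp macrophage markers tested, 6 rose, 0 fell and 13 did not pass (median 0.64); 2 of them are Axl and Mertk, and none of the 20 was at the lowest value. The 18 markers other than these summed to 23916 and 31175 normalized counts in KO, against 16552 and 15177 in WT. Hmox1 rose by 1.07 (adjusted p = 0.0147). The 13 that did not pass in limma included Spic at 0.20 (adjusted p = 0.339) and Vcam1 at 0.79 (adjusted p = 0.120). Itgad, among the same 13, was at -0.05 (adjusted p = 0.835). The 6 marginal zone and metallophilic macrophage markers other than Marco summed to 1716 and 2127 counts in KO, against 924 and 1211 in WT, with 1 of 4 tested genes higher (Clec4n, by 0.72, adjusted p = 0.0352) and 0 lower. Of 18 monocyte markers 7 rose and 0 fell (median 0.52). Among the 7 was Cebpb, a myeloid transcription factor, which rose by 1.21 (adjusted p = 0.0147). Cebpb is also in the list of immediate early genes, where 21 of 26 rose. The monocyte markers that did not pass in limma included Ccr2 at 0.021 (adjusted p = 0.908) and Plac8 at 0.14 (adjusted p = 0.728). Ly6c2, at 0.58 (adjusted p = 0.0954), did not pass either. Cd209b, a defining marker of marginal zone macrophages, stood at 8.24 and 8.32 in KO, against 8.45 and 8.38 in WT (log2 values), close to the lowest value of the table.

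Dendritic cell markers moved the other way. Of 16 pan dendritic cell markers tested 0 rose, 9 fell and 7 did not pass (median -0.47). Of 17 DC1 markers, which include Cd36 and Havcr2, 5 fell, 1 rose and 11 did not pass (median -0.38). The 15 without these summed to 147554 and 133352 counts in KO, against 169499 and 211855 in WT. Xcr1, the chemokine receptor that defines DC1, differed by -0.37 without passing (adjusted p = 0.171). Platelet markers, which belong to cells that carry CD36, had 0 of 3 tested genes past the threshold in limma (1 with an unadjusted p under 0.05). All 9 platelet genes in the table summed to 1250.5 and 1375 counts in KO, against 876 and 942 in WT, and Tubb1, the platelet tubulin, was under the filter at 139 and 123 counts in KO, against 27.9 and 73.8 in WT. The endothelial and stromal list, of cells that carry the mannose receptor, had 0 of 6 past the threshold in limma (1 with an unadjusted p under 0.05). Of the remaining marker lists, natural killer cell genes rose in 11 of 14, erythroid genes in 10 of 18, neutrophil genes in 4 of 15 and T cell genes in 3 of 7, with 0 lower in each. The WT libraries were far apart for 2 of these: neutrophil genes summed to 280181 and 262716 counts in KO, against 238995 and 93097 in WT, and erythroid genes to 64476 and 90586 in KO, against 10545 and 31445 in WT. Type 2 dendritic cell genes rose in 2 of 13 (Klf4 and Tbx21) and fell in 2 (Esam and Clec4a4). Klf4 is also in the list of immediate early genes and Tbx21 in that of natural killer cell genes. B cell and plasmacytoid genes had 0 of 10 and 0 of 14 past the threshold in limma (1 in each with an unadjusted p under 0.05). Over all genes tested, 24.7% reached that unadjusted level. Plasmacytoid genes summed to 61290 and 35487 counts in KO, against 35607 and 42345 in WT. B cell genes summed to 3792 and 6739 in KO, against 8993 and 4954 in WT.

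Each gene was also set against these marker sums within a library. As a share of the red pulp macrophage sum, Axl was 7.66% and 8.31% in KO, against 7.87% and 5.66% in WT, so that the groups overlapped. As a share of the DC1 sum it was higher in both KO libraries, at 1.24% and 1.94% in KO, against 0.769% and 0.405% in WT. Of the red pulp sum, Mrc1 was 4.91% and 7.17% in KO, against 7.01% and 4.69% in WT, and Msr1 was 2.25% and 2.02% in KO, against 1.31% and 2.32% in WT, again overlapping. On the DC1 sum both were higher in KO, with Mrc1 at 0.796% and 1.68% in KO, against 0.684% and 0.336% in WT, and Msr1 at 0.364% and 0.472% in KO, against 0.128% and 0.166% in WT. Mertk overlapped on both sums, and of the red pulp sum it was 1.35% and 2.12% in KO, against 2.76% and 1.31% in WT. Cd36 was lower in KO on the red pulp sum, at 11.8% and 11.99% in KO, against 14.2% and 15.0% in WT, but higher as a share of the DC1 sum, at 1.91% and 2.80% in KO, against 1.38% and 1.08% in WT. Havcr2 was 3.59% and 3.72% of the DC1 sum in KO, against 3.88% and 3.11% in WT, and the groups overlapped. Its share of the pan dendritic cell sum was slightly higher, at 1.21% and 1.23% in KO, against 1.18% and 1.14% in WT, and its share of the red pulp sum was lower, at 22.2% and 15.9% in KO, against 39.7% and 43.4% in WT. Like Cd36, Lrp1, Pros1 and Gas6 were lower in KO on the red pulp sum and higher on the DC1 sum. The red pulp sum was itself higher in both KO libraries and the DC1 sum lower. A gene with even counts therefore takes this order by arithmetic. The share of all genes with this order was not computed. Pros1, which differed by only 0.05 in log2 values, was 2.30% and 1.63% of the red pulp sum in KO, against 3.12% and 3.17% in WT. Of the DC1 sum Pros1 was 0.373% and 0.381% in KO, against 0.305% and 0.227% in WT. Marco overlapped on the red pulp sum and was higher in KO on the DC1 sum. These shares were computed after the values were seen, have no test, and depend on which markers are summed. A few abundant genes weigh heavily in the sums. Cd74, the class II invariant chain, gave 193842 and 179481 of the 436675 and 402091 pan dendritic cell counts in KO. In WT it gave 233470 and 237744 of 556503 and 576749. Of the DC1 sum, Wdfy4 gave 48993 and 47636 counts in KO, against 73186 and 84475 in WT. The part of the other cells in the differences of the members was not tested.

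**Figure D4:**
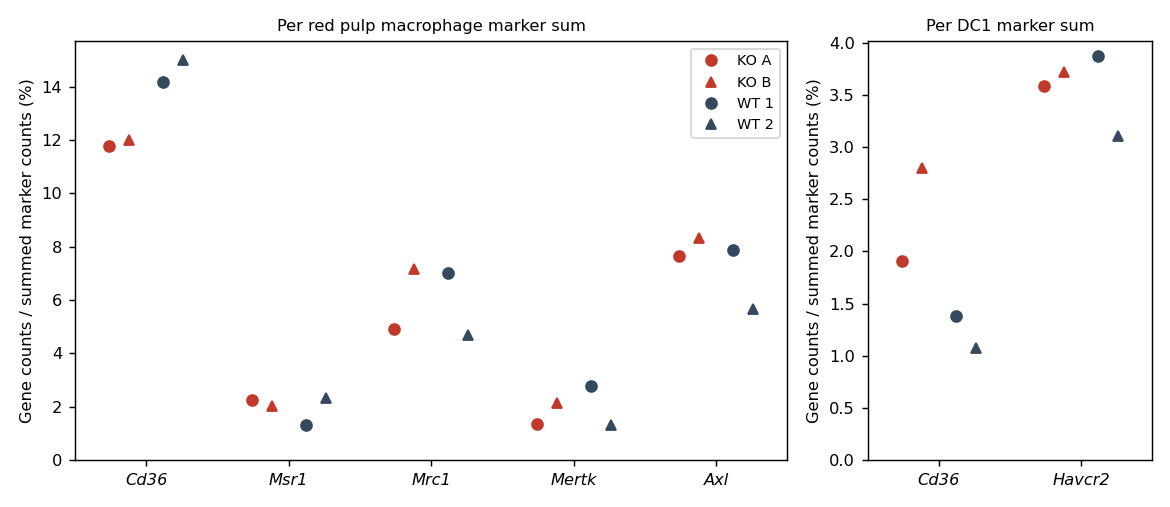
Normalized counts of single genes as a percent of the summed counts of 18 red pulp macrophage markers (left) or 15 DC1 markers (right) in each library (points, KO left of WT), with members of the 10-gene set left out of the sums. Axl, Mrc1, Msr1 and Mertk on the left and Havcr2 on the right overlap between KO and WT, while Cd36 is lower in KO on the left and higher in KO on the right.

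The genes most like each member over the 4 libraries were found by the root mean square distance between centred log2 values, without a test and after the values were seen. Mrc1 was closest to Ncam1 (0.065) and Vcam1 (0.091), and 4 genes lay within 0.1. Vcam1, an adhesion molecule of red pulp macrophages, stood at 11.07 and 11.82 in KO, against 10.87 and 10.43 in WT. This is the order of Mrc1, with KO B highest, KO A and WT 1 close, and WT 2 lowest. Mertk was closest to Stab2 (0.035), a scavenger receptor of sinusoidal endothelium, which stood at 9.16 and 9.77 in KO, against 9.36 and 8.83 in WT. Axl was closest to Cd84 (0.033) and Rab44 (0.050), with 8 genes within 0.1. Cd36 was closest to Nlrc3 (0.020), with 234 genes within 0.1, and Msr1 to Isca1 (0.0090), with 226. Lrp1 was closest to Kif19a (0.0066), with 831, and Pros1 to Usp1 (0.0058), with 5021. Havcr2 was closest to Rps6kc1 (0.0113) and Tmem260 (0.0118). Havcr2 had 1399 genes within 0.1, a count that grows as a gene's own range shrinks. The range over the libraries was 0.37 for Havcr2 and 1.22 for Axl.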

How the data were processed

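The library kit reads total RNA and keeps its strand, per the labels' protocols. The deposited table holds log2 values for 17300 mouse genes in 4 libraries (2 KO, 2 WT), scaled between libraries by the authors. All columns share the lowest value, 8.04, and low values are compressed, as in a variance-stabilizing transform. Salmon 1.10.1, DESeq2 and GRCm39 are named in the submitters' processing notes, with no role or order. Symbols and exon lengths came from GENCODE M21 (GRCm38), and 17289 identifiers had a symbol. Normalized counts are back-transformed from the shared lowest value. They are not raw reads, and log2 differences of weakly expressed genes understate the fold.

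Genes whose mean exceeded the lowest value by 1 log2 unit or more entered limma 3.58.1 (R 4.3.3) with an intensity trend, two-sided, with Benjamini-Hochberg adjustment over 11864 genes, an adjusted p threshold of 0.05 and 6.48 total degrees of freedom; this was checked on simulated data. All 10 members were named, and from each list at most 4 genes past the threshold by smallest p, with 2 places per direction; some of these are not reported here. Other named genes (Itgam, Mfge8, Lgals9, Adam17, Cd47, Sirpa, Xcr1, Vcam1, Stab2, Cd209b, Tubb1, Ddx3y, Spic, Itgad, Ccr2, Plac8, Ly6c2, Cd74) were chosen after their values were seen. So were the nearest genes named for the members (Ncam1, Cd84, Rab44, Rps6kc1, Tmem260, Nlrc3, Isca1, Kif19a, Usp1). Members and lists were chosen with earlier results of these data known. Alternatives changed the filter, scaling, moderation, scale and libraries.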

Additional observations from a re-analysis of the deposited data

How the results depend on the processing

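The number of the 10 genes past the threshold was 1 in place of 0 with the filter of 2 log2 units (Axl, 0.80, adjusted p = 0.0480), with quantile normalization (Havcr2, -0.38, adjusted p = 0.0487) and with robust moderation (Msr1, 0.56, adjusted p = 0.0452), and it was 0 without a filter, without the intensity trend and on log2 of the count plus 1. On that last scale the untested differences of Marco and Gas6 were 1.19 and 0.42. Leaving out 1 library at a time, where the lone sample is assumed to vary like the other group, the number ran from 0 to 1, the number over all genes from 0 (without KO A) to 820 (without WT 2), with 3 without KO B, the difference of Axl from 0.58 to 1.01 and that of Msr1 from 0.40 to 0.72. No alternative turned the direction of any of the 10 genes. No paired analysis was possible because the KO columns carry numbers that match no KO sample title. Marco and Gas6, under the filter in the values as reported, did not pass with no filter (adjusted p = 0.238 and 0.709). The read depth behind low values is unknown.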
